A study of Caenorhabditis elegans with 24 samples.

Results

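The cytochrome P450 genes of *Caenorhabditis elegans* outside the *cyp-35* family were taken as every gene whose WormBase name starts with cyp- but not with *cyp-35*, with no use of measured values. The gene name table held 64 such genes, and 49 of them were present in at least 1 of the 2 deposited expression tables, which together listed 14652 genes. Of the 49, 48 were in the table of whole animals from the germline HSF-1 depletion experiment, 44 were in the table of germline nuclei and whole worms, and 43 were in both. The 15 genes in neither table, *cyp-23A1* and *cyp-13A1* among them, were not analysed here.

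The RNA came from 2 strains, both carrying the degron- and GFP-tagged *hsf-1* allele *ljt3[hsf-1::degron::gfp]* and the transgene *ieSi38*, in which the *sun-1* promoter drives the auxin receptor TIR1 in the germline. Strain JTL642 also carried *daf-2(e1370)*, a reduction-of-function allele of the insulin/IGF-1 receptor, and is called *daf-2* below. Strain JTL621, the wild type of these comparisons, instead carried *unc-119(ed3)*, so that the strains differed by more than *daf-2*. In the depletion experiment *daf-2* animals received either 1 mM auxin, to degrade germline HSF-1 protein, or 0.25% ethanol (EtOH) as control. Exposure lasted 16 h from young adulthood or 88 h from egg lay, and whole animals were then collected. In the nuclei experiment isolated germline nuclei and lysates of whole worms were prepared from young adults of both strains. Each of the 8 groups had 3 libraries. The study calls its replicate libraries biological replicates, but the labels name no separate cultures, so p-values measure only the spread between these samples.

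P450 enzymes are heme proteins, mostly of the endoplasmic reticulum, that insert an oxygen atom into lipids, steroids and foreign compounds with electrons passed on by a reductase. The nematode families fall by sequence into classes related to mammalian CYP2, CYP3 and CYP4 enzymes and a mitochondrial type. Many are expressed in the intestine, the main site of xenobiotic and fat metabolism, whereas a few have roles in reproduction: *cyp-31A2* and *cyp-31A3* act with the reductase EMB-8 to build the lipid-rich layer of the eggshell. CYP-29A3 and CYP-33E2 make signalling eicosanoids from polyunsaturated fatty acids, and CYP-13A12 and CYP-36A1 act in responses to oxygen downstream of the hydroxylase EGL-9 and the factor HIF-1. The P450 of the dafachronic acid hormone pathway, DAF-9, carries another name and was counted among associated genes here.

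The 49 genes comprised 23 of CYP2-like families (14, 33, 34 and 36), 14 of CYP3-like families (13, 25 and 43), 11 of CYP4-like families (29, 31, 32, 37 and 42) and the mitochondrial-type *cyp-44A1*. Chromosome V carried 24 of them. On the WBcel235 assembly 22 genes lay in 7 runs with no more than 10 kb between neighbours. The longest run held *cyp-34A5*, *cyp-34A6*, *cyp-34A7*, *cyp-34A8* and *cyp-34A9*, between positions 3955701 and 3970540 of chromosome V. Runs of 4 held *cyp-13A2*, *cyp-13A4*, *cyp-13A5* and *cyp-13A6* on chromosome II, between 9783384 and 9802821, and *cyp-33C4*, *cyp-33C3*, *cyp-33C5* and *cyp-33C7* on chromosome V, between 2236140 and 2252591. A run of 3, *cyp-25A1*, *cyp-25A2* and *cyp-25A3*, lay on chromosome III between 3832591 and 3839735. Reads that matched several genes were counted as fractions, so levels of close copies such as *cyp-31A2* and *cyp-31A3* are not fully separate. *cyp-44A1* overlaps *npp-24* on the same strand, and 6 genes (*cyp-31A5*, *cyp-33E3*, *cyp-36A1*, *cyp-37A1*, *cyp-37B1* and *cyp-43A1*) overlap a gene on the opposite strand, and since the counting command in the methods names no strand option, reads of these pairs may not be told apart.

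As estimated from the steps between low values, the libraries of the depletion experiment held 20.9 to 38 M counted reads (M, mega), those of whole worms 21.9 to 28.8 M and those of nuclei 13.9 to 19.3 M. Values are CPM, counts scaled to a common library size by the authors, separately for each table, so that levels were tested only within a table. In nuclei, 37.9 to 72.9% of the CPM fell on ribosomal RNA genes, against 9.34 to 35.1% in whole worms. A single read was worth 0.0888 to 0.157 CPM in nuclei, and libraries of a nuclei group correlated at r = 0.800 to 0.836 across genes, against 0.926 to 0.986 for whole worms. Germ cell markers were not higher in the nuclei than in the worms: of 15 markers none was higher and 5 were lower in wild type, and 1 was higher and 6 were lower in *daf-2*. Intestinal markers were lower in nuclei (10 of 15 in wild type, 13 of 15 in *daf-2*), whereas 5 of 15 sperm markers were higher in either genotype. HSF-1 was removed as a protein and *e1370* changes the protein sequence, so RNA of *hsf-1* and *daf-2* themselves checks neither label. RNA of downstream genes can bear on them. For the auxin label, the study reports lower transcript levels of several chaperone genes in *daf-2* animals after the depletion. No downstream gene was used here to check either label.

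In *daf-2* whole animals the P450 transcripts with the highest level per kilobase of exon were those of the eggshell genes. In the 16 h EtOH controls *cyp-31A2* reached 39.5 CPM per kb, ahead of *cyp-31A5* at 32.8 and *cyp-31A3* at 32.4 CPM per kb. In CPM of the whole transcript, *cyp-31A2* stood at 64.4 ± 6.9 (SD, n = 3), *cyp-31A3* at 51.8 ± 2.8 and *cyp-31A5* at 46.0 ± 0.31. Between these and most other genes lay *cyp-44A1* (39.7 ± 1.0 CPM), the CYP3-like *cyp-25A2* (39.5 ± 3.1 CPM) and the CYP2-like *cyp-34A8* (34.4 ± 2.9 CPM). Together the 48 genes made up 539 to 547 CPM in these controls, and 6 of them had a mean below 1 CPM while 15 had a mean of at least 10 CPM. Near the bottom was *cyp-13A4* with 0.342, 0.424 and 0.101 CPM. After 88 h of auxin *cyp-34A8* led per length at 37.8 CPM per kb, with *cyp-31A2* at 36.9 CPM per kb.

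In the separately normalised nuclei table the 31A genes also stood among the highest in whole worms. *cyp-31A2* led wild-type worms in CPM (20.2, 24.6 and 13.3) and *daf-2* worms (30.2, 30.9 and 27.9). In wild-type worms it was followed by *cyp-13A2* with a mean of 17.4 CPM and *cyp-33C8* with 15.2 CPM, and in *daf-2* worms by *cyp-34A8* with 29.5 and *cyp-31A5* with 26.6 CPM. In nuclei the order was different. The highest in wild-type nuclei were *cyp-13A2* (24, 8.68 and 19.5 CPM), *cyp-13A5* (27.8, 4.53 and 15.8 CPM) and *cyp-42A1* (7.89, 7.04 and 20.2 CPM), with worm means of 17.4, 13.5 and 9.73 CPM in the same order. In *daf-2* nuclei *cyp-31A5* led with 16.1, 22 and 4.14 CPM, followed by *cyp-44A1* with 11.6, 14.7 and 9.21 CPM and *cyp-33A1* with 6.47, 5.31 and 10.6 CPM. The 44 genes summed to 117 to 171 CPM in wild-type nuclei and 93.4 to 132 CPM in *daf-2* nuclei, against 208 to 244 and 268 to 313 CPM in the corresponding worms. Only 5 of 44 genes in wild-type nuclei and 2 of 44 in *daf-2* nuclei had a mean of at least 10 CPM.

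**Figure D1:**
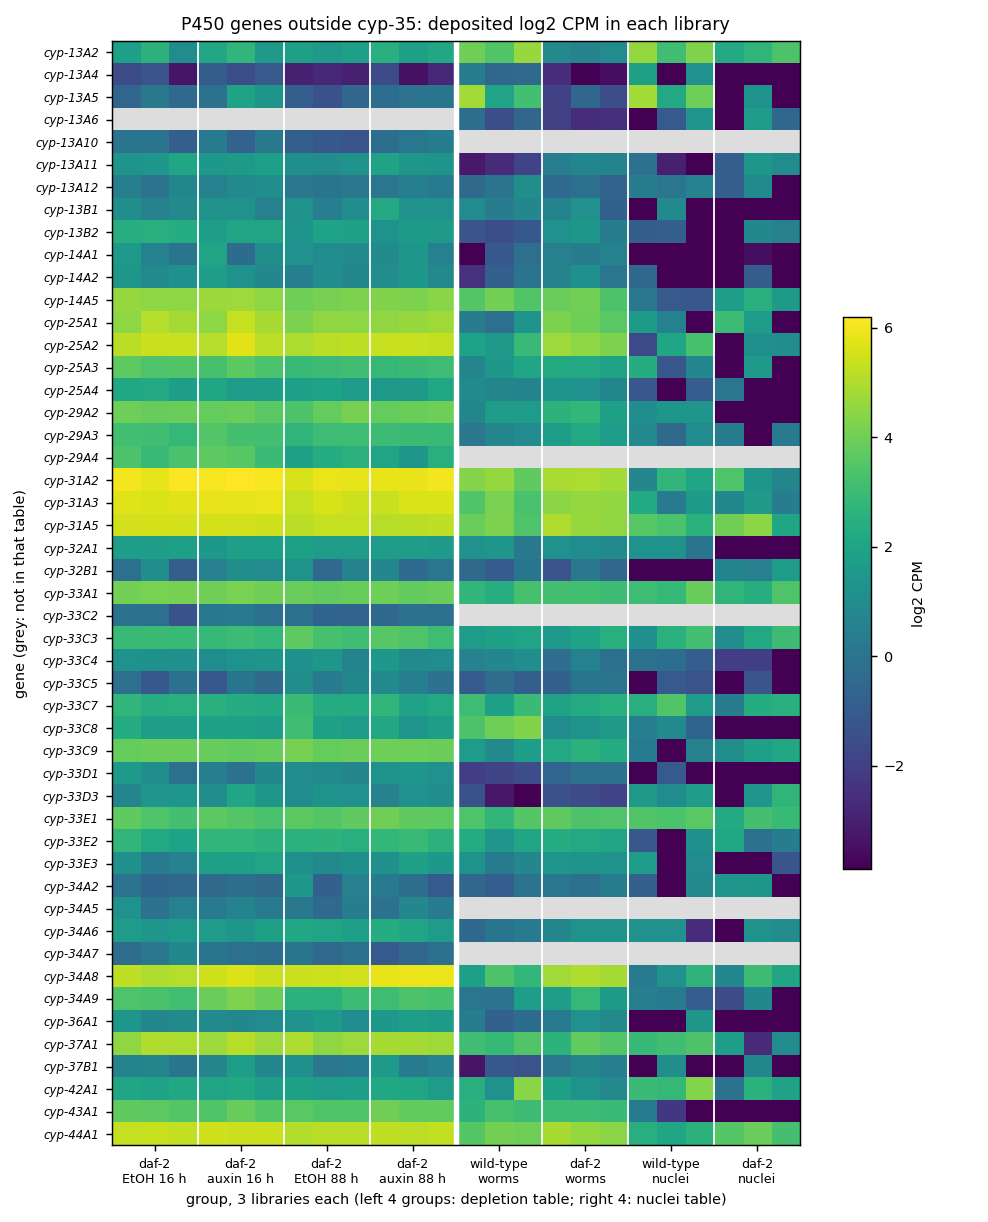
Heat map of deposited log2 CPM for the 49 P450 genes (vertical axis, by family) in the 24 libraries (horizontal axis, by group); grey marks a gene that is not in that table, and colours are comparable only within a table. The cyp-31A genes form a band of high values in whole animals, and the nuclei columns hold most of the values at the bottom of the scale.

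The depletion comparison asked how P450 transcripts of the whole animal responded when HSF-1 was degraded in the germline of *daf-2* animals. No P450 gene outside *cyp-35* passed the test after 16 h: 0 of 46 tested genes were called higher or lower by limma at an adjusted p below 0.05, where 0.0792% of all genes tested were called (0.0554% higher, 0.0237% lower). At an unadjusted p below 0.05 there were 5 genes (*cyp-13A5*, *cyp-13B2*, *cyp-33E3*, *cyp-34A8* and *cyp-34A9*) of the 46, and 4.43% of all genes. After 88 h again 0 of 46 were called, against 0.103% of all genes (0.0792% higher, 0.0237% lower), with 4 genes (*cyp-13A10*, *cyp-34A8*, *cyp-34A9* and *cyp-43A1*) at an unadjusted p below 0.05, against 5.95% of all genes. The median log2 difference of the P450 genes was 0.05 at 16 h and 0.11 at 88 h, beside 0.01 and -0.02 for all genes.

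For most P450 genes the data bounded the difference to less than a doubling. The 95% interval of the log2 difference lay within 1 on either side of 0 for 32 of 46 genes at 16 h and for 31 of 46 at 88 h. It was narrow for the 31A genes: from -0.12 to 0.32 for *cyp-31A2*, from -0.02 to 0.37 for *cyp-31A3* and from -0.16 to 0.13 for *cyp-31A5* at 16 h. At 88 h the interval for *cyp-31A2* ran from -0.07 to 0.37. The eicosanoid-forming *cyp-29A3* and *cyp-33E2* had intervals of -0.06 to 0.58 and of -0.05 to 0.80 at 16 h. The oxygen-response genes were less tightly measured, with -0.15 to 1.07 for *cyp-13A12* and -0.63 to 0.38 for *cyp-36A1*. Of the CYP4-like genes without an assigned role here, *cyp-37A1* had an interval of -0.30 to 0.37 and *cyp-42A1* of -0.48 to 0.32, whereas that of the low *cyp-37B1* ran from -0.34 to 1.55. The CYP3-like *cyp-43A1* had -0.32 to 0.26 at 16 h and 0.05 to 0.63 at 88 h (limma, adjusted p = 0.756). The CYP4-like *cyp-29A2* had -0.49 to 0.22 at 16 h and -0.22 to 0.48 at 88 h.

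**Figure D2:**
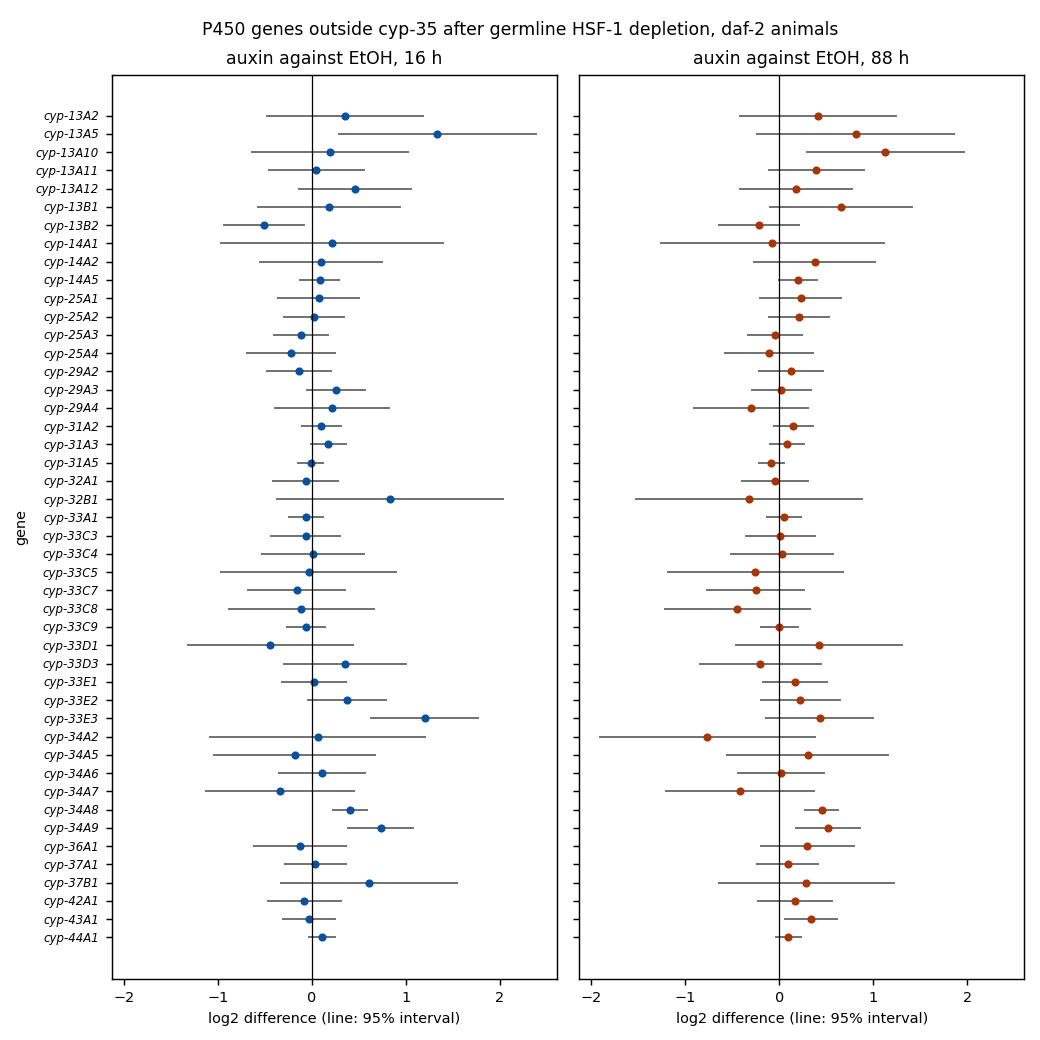
Log2 difference in CPM between auxin and EtOH (horizontal axis; point, limma estimate; line, 95% interval) for the 46 tested P450 genes (vertical axis) in daf-2 whole animals after 16 h and 88 h. No gene passed an adjusted p of 0.05, and the 95% interval lay within 1 on either side of 0 for 32 genes at 16 h and 31 at 88 h.

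The auxin and EtOH libraries did not overlap in 7 of 46 P450 genes at 16 h and in 11 of 46 at 88 h, against 10.9% of all genes at either time. They did not overlap at both times in 4 genes, all higher with auxin: *cyp-33E3*, *cyp-34A8*, *cyp-34A9* and *cyp-44A1*. These were 4 of 46 P450 genes, and 2.06% of all genes did not overlap at both times (1.34% higher with auxin at both). The CYP2-like *cyp-34A8* measured 37.8, 32.2 and 33.4 CPM with EtOH and 44.6, 50.6 and 41.7 CPM with auxin at 16 h. At 88 h it measured 41.9, 43.4 and 46.1 CPM with EtOH and 58.6, 60.6 and 60.6 CPM with auxin. The log2 differences were 0.40 ± 0.09 (SE, adjusted p = 0.411) and 0.45 ± 0.09 (adjusted p = 0.216), so that every auxin library was above every control and neither difference passed the test.

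Its neighbour *cyp-34A9* measured 10.7, 9.79 and 8.76 CPM with EtOH and 14.7, 18.9 and 15.2 CPM with auxin at 16 h (log2 difference 0.73 ± 0.16 SE, adjusted p = 0.411). At 88 h it measured 5.89, 5.92 and 8.09 against 8.35, 10.5 and 9.50 CPM (0.52 ± 0.16, adjusted p = 0.69). The remaining tested genes of the same run did not separate at either time. Over all 6 tested 34A genes the log2 differences spanned -0.34 to 0.73 at 16 h and -0.76 to 0.52 at 88 h. These ranges include *cyp-34A8* and *cyp-34A9* themselves and *cyp-34A2*, which lies outside the run. *cyp-33E3* measured 2.28, 1.22 and 1.49 CPM with EtOH and 3.62, 3.47 and 4.00 CPM with auxin at 16 h, a log2 difference of 1.20 ± 0.26 (adjusted p = 0.411). At 88 h its values were 2.23, 1.93 and 2.20 against 2.27, 3.68 and 2.78 CPM, where the lowest auxin library was next to the highest control (0.43, adjusted p = 0.93). *cyp-33E3* was also the single P450 gene outside *cyp-35* on the deposited list of 67 genes induced by auxin itself in an earlier study, and the part of auxin in its values was not tested. *cyp-44A1* differed least, with 39.5, 40.8 and 38.8 CPM against 44.6, 42.1 and 41.9 CPM at 16 h and 32.4, 36.1 and 35.5 against 37.1, 36.1 and 38.1 CPM at 88 h.

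The change with auxin was also compared between the times. It differed in 0 of 46 P450 genes and in 0% of all genes at an adjusted p below 0.05, and also in 0 of the 46 at an unadjusted p below 0.05, where 241 genes of the whole table were found. Of the 46 P450 genes, 28 had a positive log2 difference with auxin at 16 h and 32 at 88 h. The 5 tested 13A genes were positive at both times (0.05 to 1.33 at 16 h, 0.18 to 1.13 at 88 h), none past the test. The widest of them, *cyp-13A5*, rested on dispersed values: 0.662, 1.10 and 0.763 CPM with EtOH against 0.914, 3.83 and 2.55 CPM with auxin at 16 h.

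**Figure D3:**
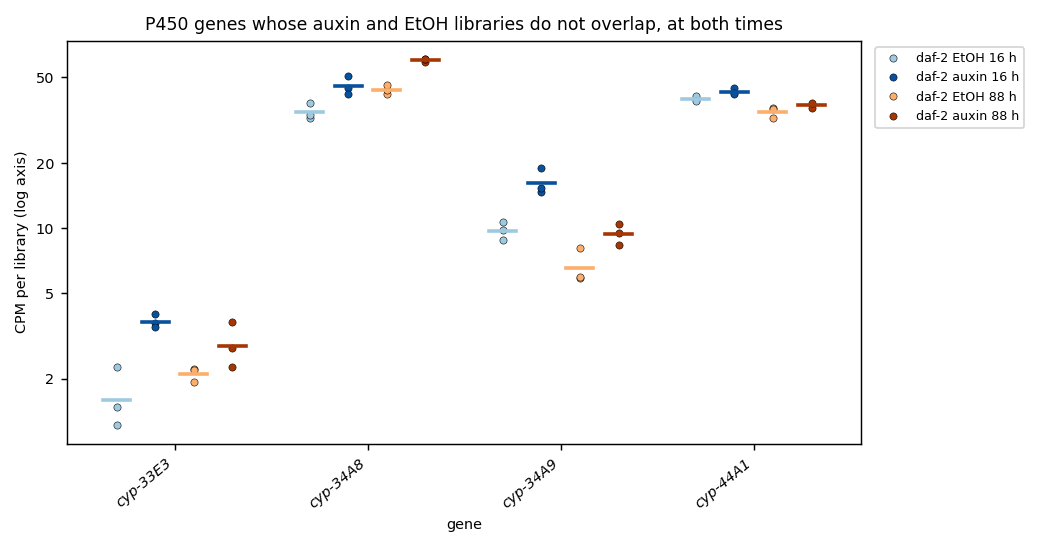
CPM in each library (log axis; bar, mean of the log2 values) of the 4 P450 genes whose auxin and EtOH libraries did not overlap, at 16 h and at 88 h, in daf-2 whole animals. The auxin libraries of cyp-34A8 lie at 41.7 to 50.6 CPM at 16 h against 32.2 to 37.8 CPM in controls, while those of cyp-44A1 lie close to their controls.

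The EtOH controls at the 2 times differed together in the start of exposure (young adulthood or egg lay) and in its length. The 88 h animals had grown to gravid adults, and the labels give no age at collection for the 16 h animals. Synchronisation was by hypochlorite or by egg laying, the latter for treatment from egg lay. These differences cannot be told apart. Of the 46 P450 genes, 1 was higher and 4 were lower at 88 h than at 16 h, against 9.89% of all genes called (7.61% higher, 2.29% lower). *cyp-34A8* was higher, by 0.35 ± 0.09 on the log2 scale (adjusted p = 0.0375), with every 88 h library above every 16 h library. Against its direction went the adjacent *cyp-34A9*, lower by 0.57 log2 units (log2 difference -0.57, adjusted p = 0.0496). *cyp-14A5*, a CYP2-like gene, fell from 24.5, 22.6 and 22.6 CPM to 15.6, 17.4 and 18.6 CPM (log2 difference -0.44, adjusted p = 0.0299). *cyp-31A5* fell from 45.9, 46.3 and 45.7 CPM to 35.4, 39.9 and 39.2 CPM (log2 difference -0.27, adjusted p = 0.0367). *cyp-25A3* was the other lower gene (log2 difference -0.52, adjusted p = 0.0425).

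By class, 1 of 12 CYP3-like and 2 of 11 CYP4-like genes had a positive log2 difference between the controls, and 15 of 22 CYP2-like genes did. Over the 46 genes the median was -0.12, beside 0.03 for all genes. Most of these genes were not called. With quantile scaling 5 of the 46 were positive and the median was -0.42, beside -0.12 for all genes. The 15 positive CYP2-like genes therefore depended on the scaling. Muscle markers were higher at 88 h in 8 of 11 genes (summed 2701 to 2996 CPM at 16 h, 4907 to 7140 CPM at 88 h), as were 6 of 14 tested sperm markers (46.4 to 190 CPM at 16 h, 297 to 678 CPM at 88 h), 3 of 10 hypodermal markers (4856 to 5887 and 7412 to 8747 CPM) and 5 of 15 intestinal markers (37149 to 92585 and 45326 to 64493 CPM). None of these lists had a marker at 0 reads throughout a group, and their part in the P450 differences was not tested. The calls were not firm. With only these 2 groups in the fit 0 P450 genes were called in either direction, and 0 of all 12634 genes. The P450 count was also 0 without EtOH replicate 2 or 3 of 16 h or EtOH replicate 1 of 88 h. With quantile scaling 1 P450 gene was higher and 11 were lower, beside 1250 higher and 1283 lower of the 12634 genes.

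The comparison of *daf-2* with wild-type worms asked which P450 transcripts depend on insulin/IGF-1 signalling in the young adult. In *daf-2* worms 7 of 41 tested P450 genes were higher and 4 were lower, where 18% of all genes were called (6.81% higher, 11.2% lower). The median log2 difference was 0.57 over the P450 genes and -0.02 over all genes, and 31 of 41 were positive. The libraries did not overlap in 21 of 41 genes, against 40% of all genes. These are RNA levels of whole animals, in which more cells of a type and more RNA per cell cannot be told apart. Of the 11 called genes, 4 (*cyp-13A11*, *cyp-13A4*, *cyp-13B2* and *cyp-37B1*) reached the minimum level for testing only through the group in which they were high, so that for them a difference was built into being tested.

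Of the CYP3-like genes, *cyp-25A1* changed most among the higher ones. It measured 1.30, 0.870 and 2.54 CPM in wild type and 18.4, 15.7 and 12.2 CPM in *daf-2* worms, a 10.7-fold difference (log2 difference 3.42 ± 0.43 SE, adjusted p = 0.000775). Its neighbour *cyp-25A2* measured 3.88, 2.88 and 7.53 CPM against 26.5, 22.5 and 18.7 CPM (5.1-fold, adjusted p = 0.00322). The other 2 genes of this subfamily, *cyp-25A3* and *cyp-25A4*, also had positive differences and did not pass. *cyp-13B2* went from 0.420, 0.363 and 0.460 CPM to 2.30, 2.75 and 1.26 CPM (4.85-fold, adjusted p = 0.00949), although it did not pass without *daf-2* replicate 2 (adjusted p = 0.0611).

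The 13A genes that were called did not share a direction. The adjacent genes *cyp-13A2*, *cyp-13A4* and *cyp-13A5* on chromosome II were lower in *daf-2* worms, and *cyp-13A11* on chromosome III was higher. For *cyp-13A4* and *cyp-13A11* a difference was built into being tested, as given above. Neither passed with all 12 libraries in the fit (limma, adjusted p = 0.161 for *cyp-13A4* and 0.0907 for *cyp-13A11*). *cyp-13A5* measured 27.5, 4.01 and 9.04 CPM in wild type and 0.257, 0.715 and 0.351 CPM in *daf-2*, a 24.9-fold lower level (log2 difference -4.64 ± 0.66 SE, adjusted p = 0.00168), which was 15-fold without wild-type replicate 1 and 39.3-fold without wild-type replicate 2. The wild-type libraries of *cyp-13A5* differed several-fold among themselves, yet the lowest of them remained above the highest *daf-2* library. *cyp-13A2* measured 16.1, 11 and 25 CPM against 1.83, 1.55 and 1.95 CPM (9.30-fold lower, adjusted p = 0.000448). The much scarcer *cyp-13A4* measured 1.32, 0.698 and 0.755 CPM against 0.162, 0.0672 and 0.0903 CPM, where 0.0672 CPM is the value of 0 reads in that table (adjusted p = 0.00434). In the opposite direction, *cyp-13A11* measured 0.108, 0.159 and 0.272 CPM in wild type and 1.35, 1.68 and 1.57 CPM in *daf-2* (9.12-fold, adjusted p = 0.0027). The gene next to it, the oxygen-response gene *cyp-13A12*, had 0.748, 0.983 and 2.12 CPM in wild type and 0.776, 0.889 and 0.626 CPM in *daf-2* (log2 difference -0.62, 95% interval -1.70 to 0.47).

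Of the CYP2-like genes, *cyp-34A8* was higher and *cyp-33C8* lower. *cyp-34A8* measured 3.51, 10.5 and 6.90 CPM in wild type and 27.5, 32.1 and 28.9 CPM in *daf-2* (4.66-fold, adjusted p = 0.00442). *cyp-33C8* measured 10.5, 15.8 and 19.3 CPM in wild type and 2.04, 2.36 and 2.92 CPM in *daf-2* (6.12-fold lower, adjusted p = 0.00111). None of the other 4 tested 33C genes passed. *cyp-33E2*, the eicosanoid-forming member of its family, differed by 0.29 on the log2 scale with an interval of -0.51 to 1.09.

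Of the CYP4-like genes, *cyp-29A3* measured 1.07, 1.64 and 1.98 CPM in wild type and 3.33, 4.75 and 3.15 CPM in *daf-2* (2.43-fold, adjusted p = 0.0491), with no overlap between the groups. It did not pass when any 1 of the 6 libraries was left out (adjusted p of 0.0548 to 0.225). *cyp-37B1* rose 5.07-fold, from 0.0966, 0.461 and 0.408 CPM to 1.08, 1.63 and 1.34 CPM (adjusted p = 0.0278), and did not pass without wild-type replicate 1 (3.07-fold, 0.0652) or without *daf-2* replicate 1 (0.062), 2 (0.103) or 3 (0.0772). The eggshell genes had positive differences short of the threshold, at 0.66 for *cyp-31A2* (adjusted p = 0.125), 0.91 for *cyp-31A3* (0.055) and 0.89 for *cyp-31A5* (0.058). The mitochondrial-type *cyp-44A1* was close to them at 0.78 (0.069). Of the remaining genes with a fixed place here, *cyp-29A2* had a log2 difference of 1.07 (0.091), *cyp-36A1* of 1.00 (0.15), *cyp-37A1* of 0.17, *cyp-43A1* of 0.02 and *cyp-42A1* of -1.34 (0.17), and none passed.

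Intestinal markers were higher in *daf-2* worms in 7 of 15 genes and lower in none, with sums of 1464 to 2831 CPM in wild type and 3493 to 7104 CPM in *daf-2*. Of the germ cell markers, 2 of 15 were higher (sums 845 to 1189 CPM and 972 to 1597 CPM), and 4 of 15 sperm markers were lower (297 to 522 and 200 to 289 CPM). Of 10 hypodermal markers 1 was higher and 2 were lower, while their sum was 1104 to 1681 CPM in wild type and 2285 to 2568 CPM in *daf-2*. No gene of these lists was at 0 reads throughout a group of worms. The share of ribosomal RNA was 15.8 to 35.1% in wild type and 9.34 to 13.3% in *daf-2*. The part of these differences in the P450 values was not tested. With all 12 libraries of the table in the fit, which takes the nuclei into the estimate of spread, 0 P450 genes were higher and 3 lower, with adjusted p from 0.0712 to 0.558 for the 7 higher genes. Of all 13613 genes this fit called 166 higher and 632 lower. With quantile scaling 12 P450 genes were higher and 4 lower, beside 676 and 912 of all genes.

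**Figure D4:**
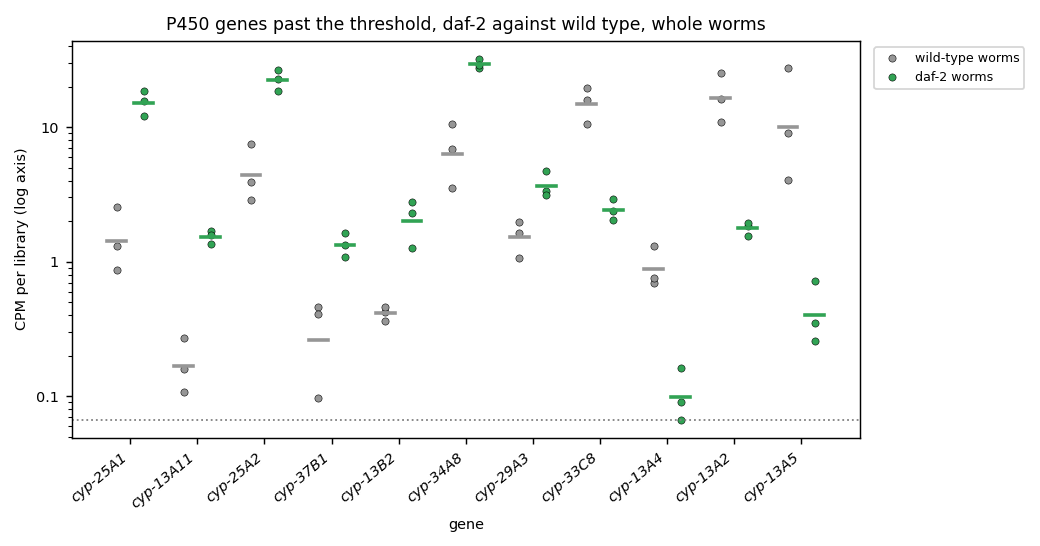
CPM in each wild-type and daf-2 whole-worm library (log axis; dotted line, the value of 0 reads) for the 11 P450 genes past an adjusted p of 0.05. The 7 higher and 4 lower genes show no overlap between the 3 libraries of each strain, but they were chosen by the test on these same libraries. Without that choice 21 of 41 P450 genes and 40% of all genes did not overlap.

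In the germline nuclei 1 of 41 P450 genes was higher and 3 were lower in *daf-2*, where 3.85% of all genes were called (1.34% higher, 2.5% lower). In each of the 4, a whole group stood at 0 reads, so each fold is a lower bound that sets that group at 3 reads in each library, for counting error only. *cyp-32B1*, a CYP4-like gene, had 0 reads in all wild-type nuclei and 1.60, 1.40 and 3.20 CPM in *daf-2* nuclei, at least 4.54-fold higher (adjusted p = 0.0321), and it reached the minimum level for testing only through that group. *cyp-29A2* measured 2.09, 2.72 and 2.55 CPM in wild-type nuclei and had 0 reads in all *daf-2* nuclei, at least 5.50-fold lower (adjusted p = 0.0314). The CYP4-like *cyp-32A1* measured 2.46, 2.44 and 1.02 CPM in wild-type nuclei and had 0 reads in *daf-2* nuclei, at least 4.13-fold lower (0.0323). *cyp-33C8* measured 1.33, 1.88 and 0.641 CPM and likewise had 0 reads in *daf-2* nuclei, at least 2.64-fold lower (0.0371). It was thus called lower in both preparations of *daf-2*. In nuclei the call was lost in 5 of 7 other settings (adjusted p of 0.0511 to 0.155, the highest with quantile scaling). It was also lost in 4 of 6 fits that left out 1 library.

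Across the 41 genes the median log2 difference in nuclei was -0.69, or -0.46 with groups at 0 reads set to their bound, beside -0.15 for all genes. The libraries of the strains did not overlap in 12 of 41 genes, against 27% of all genes. The spread was wide, the median half-width of the 95% interval being 3.02 log2 units in nuclei and 0.91 in worms. Of the genes that changed in worms, *cyp-13A5* was 27.8, 4.53 and 15.8 CPM in wild-type nuclei and 0.0672, 2.46 and 0.0672 CPM in *daf-2* nuclei, and *cyp-25A1* was 3.01, 1.46 and 0.0672 CPM against 8.21, 3.22 and 0.0672 CPM; neither passed in nuclei. Of the 44 genes in the table, 8 had 0 reads in all 3 *daf-2* nuclei libraries and 2 in all 3 wild-type ones. The 4 calls were not firm. No P450 gene was called higher when any 1 library was left out, and none was called in either direction when any 1 of the *daf-2* nuclei libraries was left out. With a pseudocount of 1 CPM 0 were higher and 1 was lower, beside 173 higher and 273 lower of all 13613 genes.

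The *daf-2* difference was tested between the preparations directly. It differed in 1 of 41 P450 genes, *cyp-29A2*, where 0.103% of all genes were called (0.022% with a more positive and 0.0808% with a more negative effect in nuclei). *cyp-29A2* measured 1.65, 3.18 and 3.21 CPM in wild-type worms and 6.27, 6.92 and 3.63 CPM in *daf-2* worms, whereas *daf-2* nuclei had no read of it and wild-type nuclei had 2.09 to 2.72 CPM (adjusted p = 0.0363). The other 40 genes, including those called in 1 preparation and not in the other, were not shown to differ between nuclei and worms in the effect of *daf-2*. The call for *cyp-29A2* was lost with a pseudocount of 1 CPM (adjusted p = 0.067) and without wild-type nuclei replicate 1 or 3, wild-type worm replicate 1 or 3, or *daf-2* worm replicate 1, 2 or 3 (0.0545 to 0.213).

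Nuclei were compared with whole worms of the same genotype, which asks which P450 transcripts were present in the germline nuclei preparation. In wild type 1 of 41 P450 genes was higher in nuclei and 8 were lower, where 35.3% of all genes were called (15.9% higher, 19.4% lower). The libraries did not overlap in 12 of 41, against 51.6% of all genes. *cyp-33D3*, a CYP2-like gene, was the higher one, with 2.84, 2.02 and 3.22 CPM in nuclei and 0.391, 0.107 and 0.0672 CPM in worms (log2 difference 4.23 ± 1.35 SE, adjusted p = 0.0258; 4.97 without worm replicate 1). It did not pass without wild-type nuclei replicate 1 (0.0613) or 3 (0.0645) or worm replicate 2 (0.0856) or 3 (0.0963), and it reached the minimum level for testing only through the wild-type nuclei. In *daf-2*, *cyp-33D3* measured 0.0672, 2.55 and 6.60 CPM in nuclei and 0.378, 0.334 and 0.274 CPM in worms and was not called.

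Among the lower genes in wild-type nuclei, *cyp-14A5* was the most separate, with 1.08, 0.486 and 0.450 CPM in nuclei against 11.3, 16.8 and 11 CPM in worms (log2 difference -4.37 ± 0.52 SE, adjusted p = 5.54e-05). *cyp-43A1* had 1.20, 0.207 and 0.0672 CPM against 6.24, 9.71 and 8.11 CPM (adjusted p = 0.00118; 30.9-fold lower, or 15.8-fold without nuclei replicate 3 and 66.9-fold without nuclei replicate 1), and *cyp-33C8* 0.641 to 1.88 CPM against 10.5 to 19.3 CPM (0.00142). The eggshell genes were lower too, *cyp-31A2* at 1.71, 6.76 and 4.28 CPM against 20.2, 24.6 and 13.3 CPM (5.12-fold lower, 0.0105) and *cyp-31A3* at 4.89, 1.18 and 3.03 CPM against 10.9, 17.8 and 9.81 CPM (4.77-fold lower, 0.00562). *cyp-31A2* did not pass without nuclei replicate 1 (0.0512) or worm replicate 2 (0.0516). The third 31A gene, *cyp-31A5*, was 11.9, 10.2 and 5.90 CPM in nuclei and 14.9, 18.4 and 10.6 CPM in worms and did not pass. *cyp-44A1* was 2.78-fold lower (0.00305), *cyp-33E2* was 9.14-fold lower (0.0321) and *cyp-32B1*, with 0 reads in the nuclei, was at least 1.73-fold lower (0.00336). *cyp-33E2* did not pass without nuclei replicate 1 or 2 or worm replicate 1, 2 or 3 (0.0623 to 0.121), the fold being 3.71 without nuclei replicate 2 and 21.5 without nuclei replicate 3, and *cyp-32B1* did not pass with quantile scaling (0.345) or a pseudocount of 1 CPM (0.0933).

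In *daf-2* the lower genes were more numerous. Of 41 P450 genes, 1 was higher and 21 were lower in nuclei than in worms, where 53.3% of all genes were called (21.3% higher, 32% lower). With quantile scaling 3 were higher and 17 lower, beside 3386 higher and 3457 lower of all 13613 genes. The libraries did not overlap in 27 of 41, against 60.6% of all genes. The higher gene was *cyp-13A2*, with 4.80, 6.55 and 10.4 CPM in nuclei and 1.83, 1.55 and 1.95 CPM in worms (3.90-fold, adjusted p = 0.00413). In wild type *cyp-13A2* had a mean of 17.4 CPM in nuclei and in worms alike. Among the lower genes, *cyp-43A1* had no read in *daf-2* nuclei and 8.20, 8.03 and 7.77 CPM in worms, at least 18.0-fold lower, and *cyp-29A2* at least 12.2-fold. With the same absence of reads, *cyp-33C8* was at least 5.45-fold, *cyp-32A1* at least 4.72-fold, the oxygen-response gene *cyp-36A1* at least 3.82-fold and *cyp-13B1* at least 2.89-fold lower.

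The 10 lower genes with the widest differences in *daf-2* also included *cyp-25A2* (0.0672, 2.24 and 2.11 CPM in nuclei against 26.5, 22.5 and 18.7 CPM in worms, adjusted p = 0.00534), *cyp-33E3* (0.0672, 0.0672 and 0.42 against 2.64, 2.54 and 2.39 CPM) and *cyp-25A3* (0.0672, 3 and 0.0672 against 4.75, 4.59 and 3.79 CPM). With some of these libraries at 0 reads the folds moved with 1 library: *cyp-25A2* was 10.3-fold lower without *daf-2* nuclei replicate 1 and 59.4-fold without replicate 2, and *cyp-25A3* was 9.7-fold lower without replicate 1 or 3 and 64.7-fold without replicate 2. The other was *cyp-14A1*, with 0.0672, 0.0894 and 0.0672 CPM in nuclei and 1.43, 1.29 and 1.44 CPM in worms, for which no fold is given. *cyp-14A1*, *cyp-14A2* and *cyp-36A1*, 3 of the 22 genes called, reached the minimum level for testing only through the *daf-2* worms. *cyp-34A8*, abundant in *daf-2* worms, had 1.74, 8.24 and 4.14 CPM in the nuclei (7.55-fold lower). The eggshell genes *cyp-31A2* and *cyp-31A3* were 8.15-fold (14-fold without *daf-2* nuclei replicate 1) and 12.4-fold lower, and *cyp-44A1* was 2.14-fold lower, which did not pass with quantile scaling (0.135). *cyp-25A3* did not pass without *daf-2* nuclei replicate 1 (0.0595) or 3 (0.0591), and *cyp-14A5* did not pass without *daf-2* worm replicate 2 (0.0537) or with quantile scaling (0.0513). Genes called lower in both genotypes numbered 6 (*cyp-14A5*, *cyp-31A2*, *cyp-31A3*, *cyp-33C8*, *cyp-43A1* and *cyp-44A1*), while 15 were called in *daf-2* alone and 2, *cyp-32B1* and *cyp-33E2*, in wild type alone. Of all genes 16.3% were called lower in both genotypes, 15.7% in *daf-2* alone and 3.09% in wild type alone. Apart from *cyp-29A2*, the difference between the genotypes was not past the test for any of these.

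The median log2 difference of the P450 genes was -0.77 in wild type and -2.68 in *daf-2* (-0.67 and -1.87 with groups at 0 reads set to their bound), beside -0.34 and -0.63 for all genes. Quantile scaling moved these to 0.08 and -1.39, beside -0.08 and -0.16, so the direction of the median for the wild type depended on the scaling. Intestinal markers summed to 465 to 538 CPM in wild-type and 436 to 800 CPM in *daf-2* nuclei, against the 1464 to 2831 and 3493 to 7104 CPM of the worms. The intestinal factor gene *elt-2* had 0 reads in all *daf-2* nuclei. Depth, ribosomal RNA share and these markers all differed between nuclei and worms, and their part in the P450 differences was not tested.

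**Figure D5:**
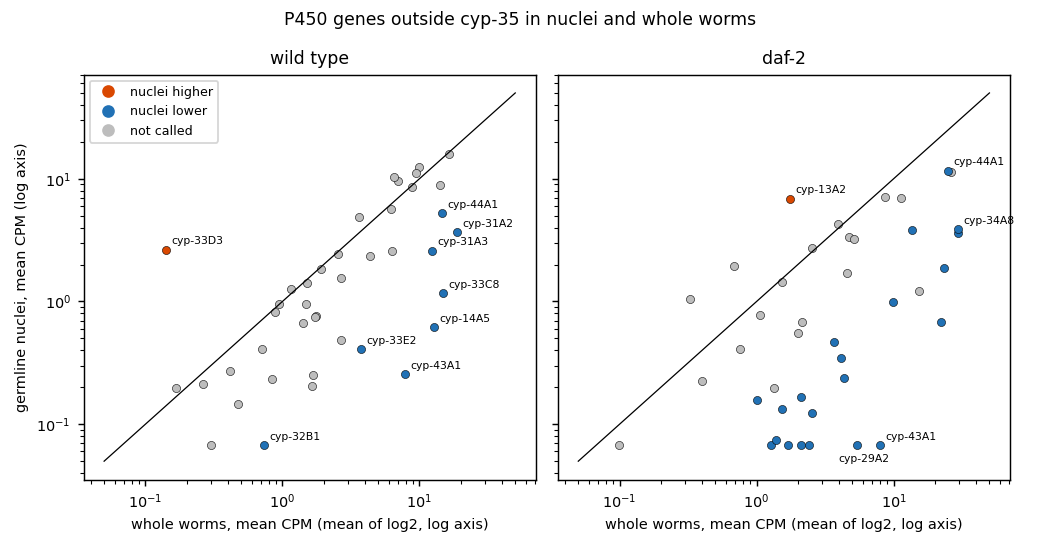
Mean CPM of each P450 gene in germline nuclei (vertical) against whole worms (horizontal), log axes, in wild type and daf-2; the line marks equality, and the points at the bottom are genes with 0 reads in all 3 nuclei libraries. Most genes lie under the line in daf-2, where 21 of 41 were called lower and 1, cyp-13A2, higher.

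The partners and regulators of P450 enzymes were read from fixed lists. Of the electron donors *emb-8*, the P450 reductase, and *cytb-5.1* and *cytb-5.2*, which encode cytochrome b5, none of 3 was called in the depletion or the *daf-2* comparisons. *emb-8* was lower in nuclei, at 15.2, 23.2 and 17.3 CPM against 38, 53.4 and 55.6 CPM in wild-type worms (log2 difference -1.40, adjusted p = 0.0101) and by a log2 difference of -1.60 in *daf-2* (0.00273), where *cytb-5.1* was also lower (-1.58, 0.00655). Of the heme supply genes 4 of 5 were tested: *hrg-2* was lower in wild-type nuclei and *hrg-7* in *daf-2* nuclei, and none was called elsewhere.

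Of the sterol hormone pathway 7 of 9 genes were tested. *daf-12*, the nuclear receptor for dafachronic acid, was higher in the 88 h controls (log2 difference 0.55, adjusted p = 0.0448) and lower in *daf-2* nuclei than in worms (adjusted p = 0.0317), and *daf-36*, an oxygenase of the pathway, was lower in nuclei of both genotypes (-2.81 and -3.35). *din-1*, a corepressor partner of DAF-12, was lower in *daf-2* worms (-2.18, 0.0124) and higher in nuclei of either genotype (3.51 and 6.17). It measured 173, 40.5 and 144 CPM in wild-type worms, whose ribosomal RNA shares were 30, 15.8 and 35.1% in the same order. In *daf-2* worms it measured 18.8, 22.3 and 25.7 CPM. The part of the ribosomal RNA share in these values was not tested. *strm-1* was higher in *daf-2* nuclei (2.19, 0.0184). No gene of this list was called with auxin.

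Of 14 regulators of P450 genes 13 were tested, and none was called with auxin or between the controls. In *daf-2* worms *pqm-1*, which encodes a zinc finger factor that opposes DAF-16, was lower, at 15.2, 13.8 and 15.8 CPM in wild type and 4.57, 5.28 and 5.48 CPM in *daf-2* (log2 difference -1.55, adjusted p = 0.00597). The xenobiotic receptor gene *nhr-8* was lower as well, at 13.7, 11 and 12.6 CPM against 7.29, 5.81 and 5.59 CPM (adjusted p = 0.0378). In nuclei against worms 1 regulator was higher and 2 were lower in wild type, and 2 were higher and 6 were lower in *daf-2*. *nhr-48* was higher in the nuclei of both genotypes and *nhr-49*, a regulator of fat metabolism, was lower in both.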

How the data were processed

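Per the deposited tables and the study's methods, the authors aligned paired, directional polyA reads with STAR to WBcel235/ce11, counted genes with featureCounts (multi-mapped and overlapping reads as fractions), removed low genes and deposited log2 CPM from edgeR with TMM scaling. Columns of the authors' own comparisons (fold changes, p-values) were not used, and 0 sample columns were left unmapped. The deposited log2 CPM were fitted with limma 3.58.1 (lmFit, eBayes with trend, R 4.3.3), two-sided, with Benjamini-Hochberg adjustment over all genes that reached 1 CPM in 25% or more of the libraries of a table: 12634 of 12958 and 13613 of 14206 genes, with a threshold of 0.05. Of the P450 genes, *cyp-13A4* and *cyp-33C2* fell below this minimum in the depletion table, and *cyp-13A6*, *cyp-33C5* and *cyp-33D1* in the other. Each comparison used all 12 libraries of its table, except *daf-2* against wild type, which used its 6. The code was tested on simulated data. Depth was recovered from the steps of the low values; 3 reads equal 0.266 to 0.471 CPM in nuclei and 0.0455 to 0.0882 CPM in worms of that table.

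Named genes were up to 10 per direction by size of change among those past the threshold, the top 3 of each group, members of known role and those against their subfamily; genes that did not overlap at both times were added after their values were seen. The members were found by name alone, but this family of genes and the lists were chosen with earlier results of these data known. Same-numbered libraries deviated together for auxin and EtOH (r = 0.624, 0.559 and 0.121 at 16 h, and 0.664, 0.274 and 0.280 at 88 h) and for wild-type nuclei and worms (0.117, 0.113 and 0.138). They did so less for *daf-2* nuclei and worms (0.0729, 0.0966 and 0.088). All of this rests on the numbers in the labels. A replicate block, another pseudocount, filter or scaling, robust variances, other libraries in the fit and leaving out each library were tried. Gene coordinates were taken from Ensembl release 115. The planned promoter motif search was not run.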

Additional observations from a re-analysis of the deposited data

Results flagged for a closer look

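The effect of *daf-2* on *cyp-29A2* differed between germline nuclei and whole worms in a test of the difference itself (limma, adjusted p = 0.0363). The log2 difference of *daf-2* to wild type was 1.07 in worms, where it did not pass by itself (adjusted p = 0.091), while all 3 *daf-2* nuclei libraries had 0 reads and the wild-type nuclei had 2.09, 2.72 and 2.55 CPM. Of the 41 genes tested this was the single one past the threshold, and the call was lost with a pseudocount of 1 CPM (adjusted p = 0.067) and in 7 of the 12 fits that left out 1 library (adjusted p up to 0.213).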

How the results depend on the processing

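Of 258 counts recomputed under another setting, 205 stayed within 1.5 times, where a count of 0 that stayed 0 was included, as in all auxin comparisons. None of 58 differences of single genes changed direction. Those genes had been chosen because they passed the threshold or did not overlap in these same data. A reversal was therefore unlikely from the outset, and calls were lost under other settings as given above. The auxin comparisons, and the difference between their times, gave 0 genes higher and 0 lower under every setting tried, including the replicate block, under which same-numbered libraries were paired, and without any 1 library (0 to 0 in each). For the EtOH controls a fit of only the groups compared gave 0 higher and 0 lower, and 0 of all 12634 genes either way. Quantile scaling gave 11 lower and the block 8 lower, beside 1283 and 836 of all genes. Leaving out 1 library gave 0 to 1 higher and 0 to 2 lower. For *daf-2* worms 12 were higher with quantile scaling, 13 with the block and 0 with all 12 libraries, beside 676, 1932 and 166 of all 13613 genes. Leaving out 1 gave 4 to 8 higher and 4 to 5 lower. For *daf-2* nuclei 0 were higher with a pseudocount of 1, robust variances or the block and 3 with all 12 libraries, and 1, 1, 0 and 5 were lower. Of all 13613 genes these 4 fits called 173, 325, 0 and 645 higher and 273, 514, 0 and 1146 lower. Leaving out 1 gave 0 to 0 higher and 0 to 4 lower. *daf-2* nuclei against *daf-2* worms gave 3 higher with quantile scaling and 2 with a pseudocount of 1, beside 3386 and 2999 of all genes. The block gave 1 higher and 23 lower, beside 2997 and 4462 of all genes. Leaving out 1 gave 1 to 2 higher and 16 to 23 lower, and 0 to 1 and 6 to 11 in wild type, where the block changed no call. The difference of the *daf-2* effects gave 0 lower with a pseudocount of 1, beside 8 of all genes, and 0 to 1 higher and 0 to 2 lower leaving out 1. The causes were not tested. In the controls and the *daf-2* comparisons the shared numbers did not pair the libraries (r between same numbers of 0.427, 0.231 and 0.0474 in the controls, 0.229, -0.0937 and 0.101 in worms and 0.0411, 0.00466 and 0.0107 in nuclei). For *daf-2* nuclei and worms it was 0.0729, 0.0966 and 0.088, less than in wild type but above the highest r between unequal numbers (-0.0352). The methods of the study save nuclei and worm lysate from each preparation, so these libraries may be paired. The main tests of nuclei against worms used no block. The nuclei, with the fewest reads, were measured least precisely: the median half-width of the 95% interval was 3.02 log2 units for *daf-2* against wild type there and 0.473 for auxin at 16 h.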
